A study of Mus musculus with 15 samples.

Results

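The striatum of E1 mice was compared with that of WT mice, gene by gene, over the autosomes. All animals were 6 months old, each library came from 1 mouse, and the groups held 4 E1 and 7 WT libraries. E1, WT and KI-96 are the genotype names that the labels give, and the labels describe the E1 and KI-96 alleles no further. By its title the study dealt with RAN translation, in which an expanded repeat is read into protein with no start codon, and with its harm in knock-in models of Huntington's disease. KI-96 (4 libraries) entered the fit as a further group, and its values are given beside those of E1 for a few genes. Because both mutants were measured against the same WT libraries, no agreement between them is counted. The table held 54232 gene identifiers. Of these, 49858 are autosomal, and 17641 of these held enough counts to be tested, out of 18278 genes tested in all. The 596 X-linked and 7 Y-linked genes tested were set aside.

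Most neurons of the striatum are spiny projection neurons, which receive cortical and dopamine input. When such neurons are driven, kinases such as ERK switch on early genes. The first wave holds transcription factors of the AP-1 and Egr families. A second wave holds proteins that act at the synapse and the phosphatases and Sprouty proteins that switch ERK off again. Interferon-stimulated genes are raised by cells that sense viral or double-stranded RNA, and myelin genes are made by oligodendrocytes.

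The libraries held 17281603 to 26388542 counts in WT and 18199927 to 19533231 in E1. Reads of 4 genes of the Y chromosome (Uty, Ddx3y, Eif2s3y and Kdm5d) summed to 155 to 218 CPM (counts relative to the scaled library size, the unit used throughout) in WT replicates 2 to 7 and to 0 in WT replicate 1. They summed to 0 to 0.0549 CPM in the E1 libraries, which is at most 1 count. Xist stood at 1031 CPM in WT 1, at 0.264 to 2.95 CPM in WT 2 to 7 and at 913 to 1203 CPM in E1. In WT 2 to 7, genotype and Y-linked reads therefore cannot be told apart, and WT 1 is the single WT library that matches E1 in both. Markers of cortical excitatory neurons were high in WT 3, E1 2 and E1 3: their mean log2 CPM was 5.95, 6.09 and 5.46, and 2.76 to 3.91 in the other 8 libraries of both groups. The striatal markers Ppp1r1b (1159 to 2447 CPM) and Drd1 (198 to 336 CPM) were high in all 11 libraries. In bulk tissue, fewer cells of a type and less RNA per cell cannot be told apart.

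One autosomal gene, the ERK phosphatase gene Dusp5, passed an adjusted p of 0.05 in edgeR's quasi-likelihood test. That is 0.00567% of the genes tested. It was higher in E1, and 0 genes passed as lower (880 had an unadjusted p under 0.05, and DESeq2 called 25). The second smallest adjusted p was 0.294. An unadjusted p under 0.05 was reached by 646 higher genes (3.66%) and 880 lower ones (4.99%), and the median log2 fold change over all genes was -0.00. Every E1 library exceeded every WT library for 151 genes (0.856%) and was below every WT library for 143 (0.811%). Other tools gave other counts: DESeq2 called 27 higher (0.153%) and 25 lower (0.142%), and limma-voom called Dusp5 alone. The data bound most changes: the 95% interval lay within 2-fold of no change for 13942 genes (79.0%) and within 1.5-fold for 9849 (55.8%). Precision depended on level, with a median SE of 0.12 (log2) for genes between 10 and 100 CPM and 0.44 for genes under 1 CPM.

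**Figure D1:**
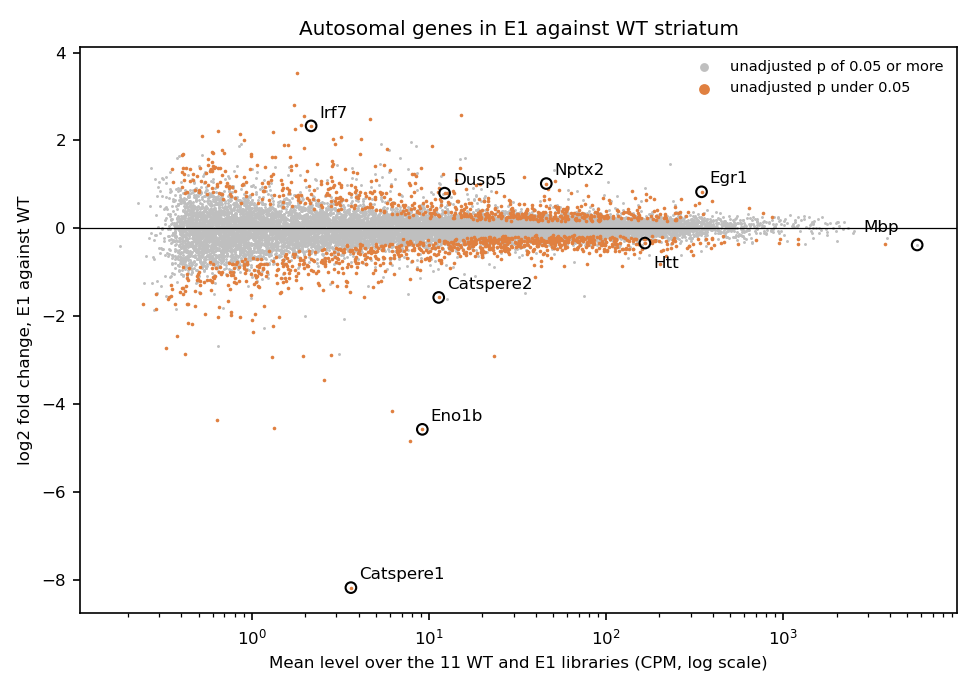
Each point is 1 of the autosomal genes tested, placed by its mean CPM over the 11 WT and E1 libraries (log scale) and its fitted log2 fold change, with genes at an unadjusted p under 0.05 in orange. The spread narrows with level, and Dusp5, at a log2 fold change of 0.80, lies well inside the range of less abundant genes.

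Dusp5 (chromosome 19, 53529109 to 53542431, build GRCm38) encodes a nuclear phosphatase that inactivates ERK and is itself induced by ERK. Its level in WT 1 to 7 was 10.4, 10.5, 9.41, 8.34, 9.88, 9.16 and 9.93 CPM. In E1 1 to 4 it was 14.8, 16.3, 20.8 and 15.3 CPM, and in KI-96 1 to 4 it was 9.38, 11.3, 11.8 and 11.8 CPM. Every E1 library was above every WT library, WT 1 lay among the other WT libraries, and WT 3, the WT library with high cortical markers, was not raised. The log2 fold change was 0.80 (SE 0.11, n = 4 and 7, edgeR adjusted p = 0.0339), and for KI-96 against WT it was 0.20 (SE 0.12). The exact two-sided permutation p was 0.00303, the smallest that groups of 4 and 7 can give. Dusp5 was chosen from these same libraries, so this p adds nothing to the lack of overlap. The call was lost in 7 other settings, with fold changes of 0.63 to 0.80. With 1 library left out at a time it was kept without WT 1, E1 4, KI-96 1 or KI-96 3 and lost without each of the other 11 (fold changes of 0.68 to 0.86).

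Htt (chromosome 5, 34761740 to 34912534), the gene of huntingtin, was lower in every E1 library. Its level was 197, 169, 180, 189, 173, 173 and 174 CPM in WT 1 to 7 and 140, 148, 135 and 145 CPM in E1 1 to 4. KI-96 1 to 4 had 178, 185, 242 and 144 CPM. The E1 and WT libraries did not overlap, but the edgeR adjusted p was 0.450 (log2 fold change -0.34, SE 0.11). For Htt as a single gene named by rule, the exact two-sided permutation p, not adjusted, was 0.00303. That is the smallest that groups of 4 and 7 can give. Neighbouring genes were counted by their distance from it. Of 34 other genes tested within 1 Mb, 1 was higher and 1 lower at an unadjusted p under 0.05, with fold changes of -0.33 to 0.45 and 0 genes whose E1 and WT libraries were apart. The median log2 fold change of the 34 was -0.05. Over all genes 0.856% were above WT in every E1 library and 0.811% below. Between 1 and 5 Mb from Htt the share at an unadjusted p under 0.05 was 12.1% of 116 genes (median 0.04). It was 14.5% of 55 between 5 and 10 Mb (median -0.17), 6.31% of 111 between 10 and 20 Mb and 6.90% of 913 beyond 20 Mb. Every E1 library was above WT for 4 of the 116 genes and below it for 2. These counts were 0 and 1 between 5 and 10 Mb, 1 and 0 between 10 and 20 Mb, and 7 and 7 beyond 20 Mb. Over all genes 4.99% were lower and 3.66% higher at an unadjusted p under 0.05. Among partners of the huntingtin protein, 4 of 23 were lower at that level and 0 higher. They include the transcription factor gene Sp1 (-0.38, SE 0.13), the clathrin adaptor gene Hip1r (-0.24, SE 0.09) and the autophagy receptor gene Optn (-0.42, SE 0.18).

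The other genes with the smallest p-values did not pass the threshold. Higher in E1 were Igf2bp2, which binds and stabilizes mRNAs, and Clmp, a cell adhesion gene. Igf2bp2 stood at 2.26 CPM in WT 1, at 1.20 to 1.76 CPM in WT 2 to 7 and at 2.97, 3.37, 3.35 and 2.41 CPM in E1 1 to 4 (log2 fold change 0.96, SE 0.20, edgeR adjusted p = 0.383). WT 1 was above the other WT libraries and below all E1 libraries. Midn, whose product brings nuclear proteins to the proteasome, was at 54.3 to 73.7 CPM in WT and at 99.1, 89.5, 114 and 75.5 CPM in E1. Dpysl5, a gene of growing axons, was at 34.4 to 50.5 CPM in WT and 69.9, 52.5, 71.0 and 61.5 CPM in E1. Lyrm4, needed to build iron-sulfur clusters, was at 15.6 to 19.4 CPM in WT and 26.2, 23.5, 23.99 and 21.2 CPM in E1. For these genes all E1 libraries were above all WT libraries. Clmp and Kcnf1 were not apart. Clmp was at 16.6 to 21.8 CPM in WT and 39.7, 32.1, 43.1 and 18.2 CPM in E1. Kcnf1, a modifier subunit of potassium channels, was at 44.7 to 74.0 CPM in WT and 105, 113, 179 and 51.4 CPM in E1. In both, E1 4 lay within WT and the other 3 E1 libraries lay above it.

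**Figure D2:**
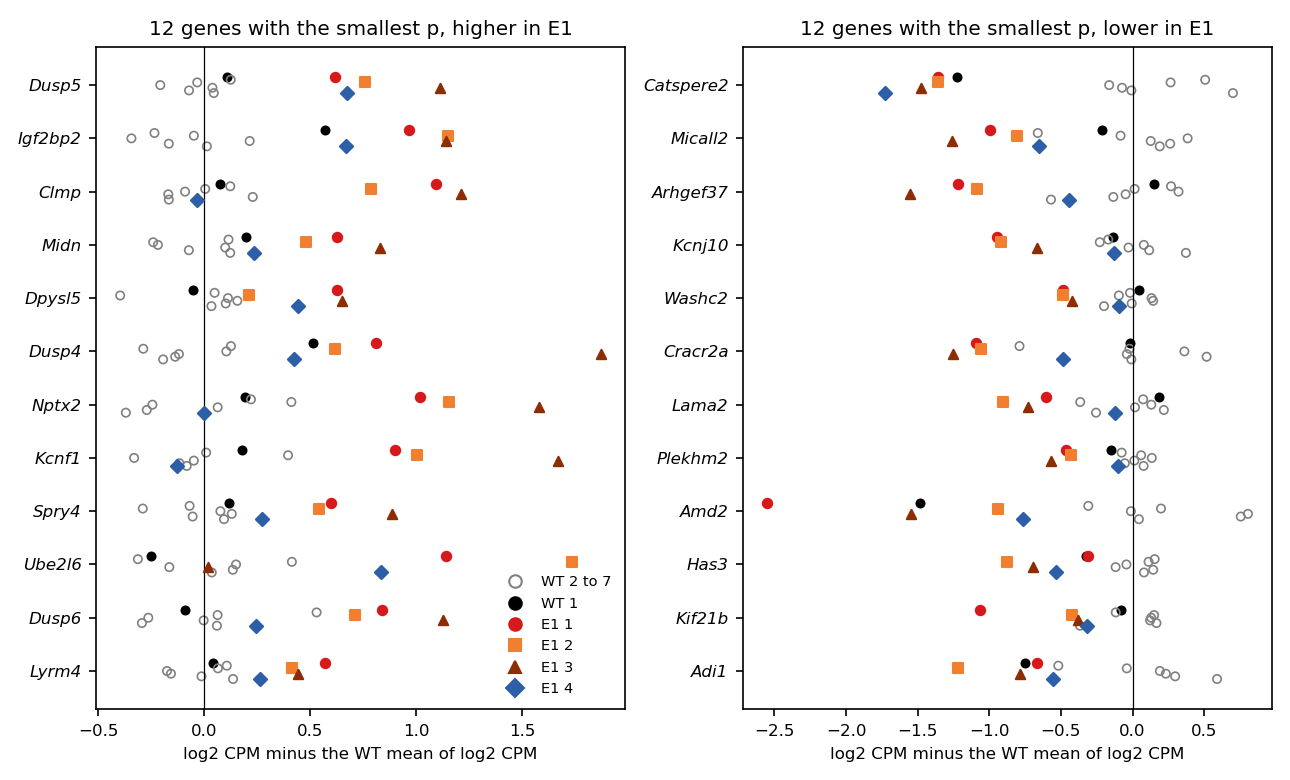
Rows are the 12 protein-coding genes with the smallest p higher (left) and lower (right) in E1, and each symbol is 1 library's log2 CPM minus the WT mean, with WT 1 in black and E1 4 as a blue diamond. For Dusp5 all E1 symbols are to the right of WT, for Clmp and Kcnf1 the diamond is among the WT circles, and for Catspere2 and Amd2 the black circle is with E1.

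The leading genes on the lower side had varied roles, and none passed the threshold. Kcnj10, the main potassium channel of glia, was at 224, 219, 211, 261, 242, 267 and 319 CPM in WT and 128, 130, 155 and 225 CPM in E1 (log2 fold change -0.64, SE 0.15, edgeR adjusted p = 0.383). Here, too, E1 4 was within the WT range. Washc2, a subunit of an endosomal actin complex, was at 80.6 to 102 CPM in WT and 66.0, 66.0, 69.0 and 86.8 CPM in E1. Lama2, a laminin chain, was at 13.8 to 20.7 CPM in WT and 11.7, 9.49, 10.7 and 16.3 CPM in E1. Plekhm2, which links lysosomes to kinesin, was at 131 to 159 CPM in WT and 105, 108, 97.9 and 135 CPM in E1. In these 3 genes E1 4 again was the highest E1 library and the only one inside the WT range. Gabrb2, a subunit of the GABA-A receptor, differed: it was at 86.4 to 140 CPM in WT and at 51.4, 73.8, 83.4 and 67.9 CPM in E1, with no overlap. The fold change on the log2 scale was -0.60 (SE 0.19, edgeR adjusted p = 0.453), beside 0.26 for KI-96. The copper transporter gene Atp7b (-0.77, SE 0.23), the adrenergic receptor gene Adra2b (-1.23, SE 0.34) and the lactate transporter gene Slc16a8 (-0.81, SE 0.22) were below WT in every E1 library too, at levels under 7 CPM.

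Genes that neurons switch on with activity were higher in E1 as a group. Of 56 tested members of 4 lists, 55 had positive fold changes, 33 were higher at an unadjusted p under 0.05 and 0 lower, against 3.66% and 4.99% of all genes. The median log2 fold change was 0.59, against -0.00 over all genes, and 1 member, Dusp5, passed the threshold. The lists hold genes that earlier results of these data had pointed to, so their direction is not independent evidence. All 8 AP-1 factors were positive (median 0.69). Fosb stood at 12.3 to 36.3 CPM in WT (median 21.9) and at 57.0, 33.6, 81.7 and 40.0 CPM in E1, so that E1 2 overlapped WT (log2 fold change 1.15, SE 0.27, edgeR adjusted p = 0.383). Junb, its partner in the AP-1 dimer, was at 47.7 to 108 CPM in WT and 128, 85.9, 174 and 119 CPM in E1.

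Of 14 Egr, Nr4a and Klf type factors, all were positive (median 0.74) and 10 were higher at an unadjusted p under 0.05. Egr1, at 189 to 334 CPM in WT, had 614, 485, 496 and 321 CPM in E1. Egr3 was at 171 to 306 CPM in WT and 443, 302, 402 and 230 CPM in E1. Npas4, which calcium entry induces in neurons, had a log2 fold change of 0.35 (SE 0.36), not larger than its error. Srf, whose product binds the CArG boxes of early genes, had 0.30 (SE 0.10).

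Of 14 feedback inhibitors of ERK 13 were positive (median 0.32), 6 were higher at an unadjusted p under 0.05, and Dusp5 alone passed the threshold. Dusp4 was at 4.53 to 7.87 CPM in WT and 9.68, 8.48, 20.2 and 7.40 CPM in E1. Dusp6 was at 28.8 to 51.0 CPM in WT and 63.1, 57.8, 77.1 and 41.8 CPM in E1. Spry4, which blocks ERK upstream, was at 7.11 to 9.52 CPM in WT and 13.2, 12.6, 16.1 and 10.5 CPM in E1, above WT in each library. Of 20 kinases, Ras proteins and their nuclear targets, 10 were positive, with a median of 0.00, and the difference between the lists was not tested. In that list Crem, a transcription factor gene that cAMP induces, was higher at an unadjusted p under 0.05 (0.41, SE 0.13). Among the effectors, all 20 were positive (median 0.57), with Nptx2, which clusters glutamate receptors, at 25.5 to 43.7 CPM in WT and 66.6, 73.3, 98.1 and 32.9 CPM in E1. Bdnf, a neurotrophin of cortical neurons, was at 14.8 and 15.4 CPM in E1 2 and E1 3, at 8.35 CPM in WT 3 and at most 1.83 CPM in the other libraries of both groups. These are the 3 libraries with high cortical markers. With these 3 left out the Bdnf fold change was -0.50, and the medians of the AP-1, Egr, feedback and effector lists were 0.56, 0.52, 0.27 and 0.35. Without E1 3, which was the highest library of all 4 lists, they were 0.52, 0.64, 0.23 and 0.43.

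The promoters of 2 of these genes are shown because their letters hold binding motifs of early gene regulators. They are the 250 bases before the start in RefSeq, build GRCm38.p6. Dusp5 is at chr19:53528895-53529144 on the plus strand and Fosb at chr7:19310046-19310295 on the minus strand. Capitals mark CArG boxes (bound by SRF), cores of the cAMP response element (TGACG on either strand) and Egr sites (GCGNGGGCG).
Dusp5: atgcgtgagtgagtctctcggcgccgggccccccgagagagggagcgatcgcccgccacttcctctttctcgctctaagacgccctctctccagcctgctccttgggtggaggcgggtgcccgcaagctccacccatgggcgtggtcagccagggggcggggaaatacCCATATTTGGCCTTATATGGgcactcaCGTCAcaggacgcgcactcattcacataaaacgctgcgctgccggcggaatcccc
Fosb: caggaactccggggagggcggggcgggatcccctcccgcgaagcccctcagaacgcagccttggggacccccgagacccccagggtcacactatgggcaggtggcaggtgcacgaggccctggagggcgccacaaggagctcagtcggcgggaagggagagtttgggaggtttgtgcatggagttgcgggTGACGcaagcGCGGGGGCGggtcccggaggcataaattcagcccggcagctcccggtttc
Dusp5 held 2 adjoining CArG boxes, beginning 82 and 72 bases before the start, and a TGACG core that begins 55 bases before it. Fosb held a TGACG core 60 bases and an Egr site 50 bases before its start. Of the 56 listed activity genes 42 had a promoter in the table. The TGACG core was in 23 of the 42 (54.8%) and in 19.8% of all 27018 genes with a promoter. Egr sites were in 10 (23.8%, against 5.33%), CArG boxes in 3 (7.14%, against 1.62%) and the AP-1 site TGANTCA in 1 (2.38%, against 7.82%). A match is a description of letters on either strand, not evidence of binding.

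Interferon-stimulated genes were higher in E1, chiefly in 1 library. Of 32 tested 31 were positive (median 0.99), and 0 passed the threshold. An unadjusted p under 0.05 was reached by 23 higher members, against 3.66% of all genes. Irf7, which amplifies the response, stood at 0.499 to 1.41 CPM in WT and at 12.9, 2.53, 1.22 and 0.997 CPM in E1 1 to 4. Gbp3, an interferon-induced GTPase, was at 2.10 to 3.99 CPM in WT and 18.4, 7.25, 3.24 and 3.88 CPM in E1. E1 1 was far above WT in both, E1 2 was above WT, and E1 3 and E1 4 were inside its range. Bst2, which tethers budding viruses to the cell surface, was the one member of this list above WT in all 4 E1 libraries: it was at 1.28 to 2.89 CPM in WT and at 18.1, 3.99, 3.14 and 3.62 CPM in E1 (log2 fold change 1.69, SE 0.43, edgeR adjusted p = 0.421). Its upstream sequence, chr8:71537473-71537722 on the minus strand, is shown with 2 overlapping interferon stimulated response elements (GAAANNGAAA) in capitals, which begin 130 and 124 bases before the start.
Bst2: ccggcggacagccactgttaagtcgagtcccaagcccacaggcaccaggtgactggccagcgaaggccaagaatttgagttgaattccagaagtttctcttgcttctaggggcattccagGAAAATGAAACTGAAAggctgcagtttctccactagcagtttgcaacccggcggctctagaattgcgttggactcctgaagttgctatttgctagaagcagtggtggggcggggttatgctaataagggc
That element was in 14 of 26 interferon-stimulated genes with a promoter (53.8%) and in 3.46% of all genes. The 3 most abundant members in WT differed in size: the log2 fold change was 0.08 (SE 0.14) for Stat2, 0.15 (SE 0.11) for Cmpk2 and 0.52 (SE 0.20) for Ifi27. Stat2 and Cmpk2 were at -0.087 and -0.0049 without E1 1. Without that library the median of the list was 0.33.

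The genes that present antigen followed the same libraries. Of 21 genes of MHC class I presentation 10 were higher at an unadjusted p under 0.05 and 1, the peptidase gene Erap1 (-0.42, SE 0.17), was lower. Over all genes the shares were 3.66% and 4.99%. The list mean was 4.03 in E1 1 and 3.56 in E1 2, 2.89 and 3.22 in E1 3 and E1 4, and 2.78 to 3.33 in WT. Tapbp, which loads peptides, was above WT in all 4 libraries, at 37.4, 26.1, 25.8 and 28.5 CPM against 21.0 to 24.6 CPM. Sensors of double-stranded RNA and the enzymes that edit it had a median of 0.04 (19 tested, 6 higher and 1 lower at an unadjusted p under 0.05). The sensor gene Ifih1 was at 10.0 CPM in E1 1 and 3.31 to 4.04 CPM in the other 3, against 2.50 to 3.65 CPM in WT. Members of the major histocompatibility family are near-identical copies, and reads may have been split or lost between them.

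Glial genes were lower, again not in every library. Of 76 tested members of 4 glial lists 14 were positive, 15 were lower and 1 higher at an unadjusted p under 0.05, and 0 passed. Over all genes 4.99% were lower and 3.66% higher at that level. All 23 myelin genes were negative (median -0.38). Mbp, which encodes a structural protein of myelin, was at 5118 to 7019 CPM in WT and at 4928, 3588, 3024 and 7583 CPM in E1. Enpp2, a secreted lipid enzyme of oligodendrocytes and choroid plexus, was at 280 to 503 CPM in WT and 204, 176, 182 and 361 CPM in E1. For Mbp, E1 4 was the highest of the 11 libraries and E1 3 the lowest. The myelin median was -0.75 without E1 4 -0.20 without E1 3, and -0.03 when WT 3, E1 2 and E1 3 were left out together. The part of tissue composition in this was not tested. Of 22 astrocyte genes 4 were positive (median -0.20), and 4 were lower and 1 higher at an unadjusted p under 0.05. Slc4a4, a bicarbonate transporter of astrocytes, was the 1 member below WT in all 4 libraries, at 263, 251, 246 and 285 CPM against 294 to 386 CPM (-0.36, SE 0.10). The astrocyte genes Slc1a3 (-0.01, SE 0.11) and Aldh1l1 (-0.01, SE 0.08) were near their WT levels. Of 14 oligodendrocyte precursor genes 4 were positive and 3 were lower at an unadjusted p under 0.05, and of 17 microglial genes 6 were positive and 3 were lower. The precursor genes Ptprz1 (-0.48, SE 0.13) and Pdgfra (-0.43, SE 0.13) and the microglial receptor gene Csf1r (-0.26, SE 0.10) were lower at an unadjusted p under 0.05.

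**Figure D3:**
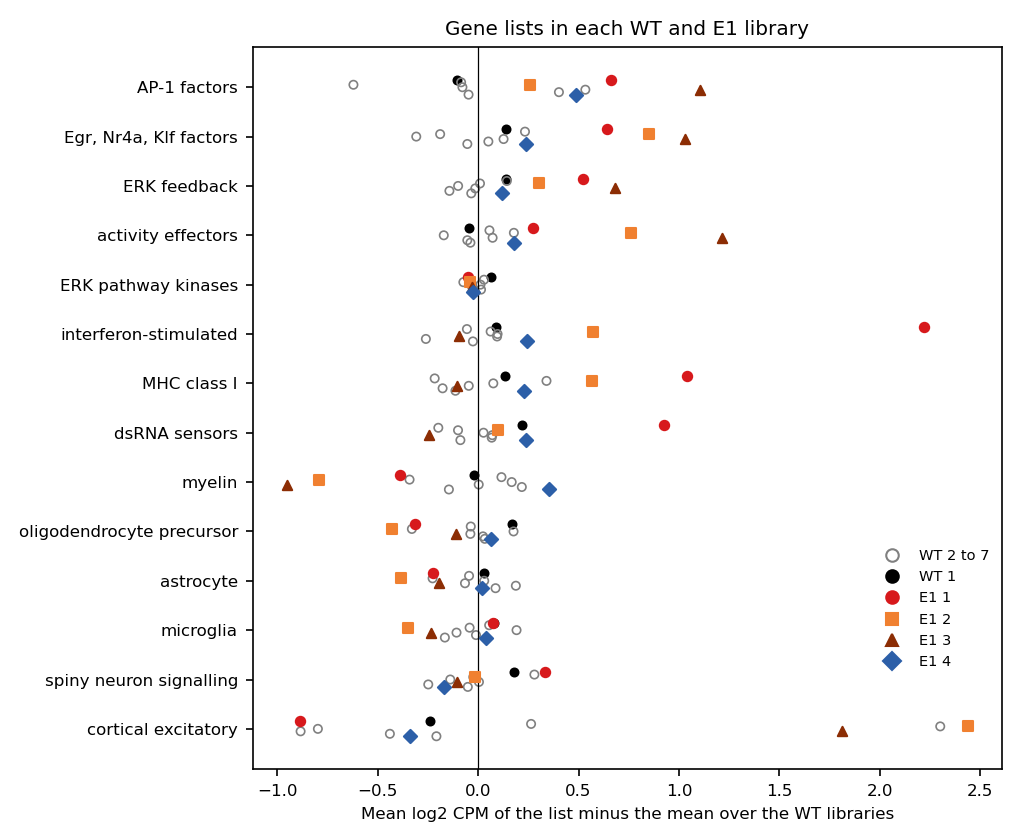
Each row is a gene list, and each symbol is 1 library's mean log2 CPM over the list minus the mean over WT. E1 3 is farthest right for the activity lists, E1 1 for the interferon list, and E1 4 is at the upper edge of WT for the activity lists, while WT 3, E1 2 and E1 3 stand apart for cortical markers.

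Genes that define spiny neurons were near their WT levels. Of 42 tested genes of direct pathway, indirect pathway and shared dopamine signalling, 22 were positive and 0 had an unadjusted p under 0.05 in either direction. Of 19 transcription factors of spiny neurons 11 were positive (median 0.04), and 2 were higher and 0 lower at that level, against 3.66% and 4.99% of all genes. The 2 were the developmental factors Dlx1 (0.56, SE 0.15) and Dlx2 (0.47, SE 0.20), while Dlx5 was at 0.04 and Dlx6 at -0.05. Of 20 interneuron genes 4 were lower and 1 higher, against 4.99% and 3.66% of all genes. Tacr1, the substance P receptor, was below WT in all 4 E1 libraries, at 27.4, 24.8, 26.4 and 27.8 CPM against 30.2 to 35.9 CPM (-0.34, SE 0.10). Chat, which makes acetylcholine, was at 23.2, 19.04, 19.5 and 28.3 CPM against 23.9 to 36.1 CPM. Over 8 synaptic and channel lists the counts were close to those of all genes: of 143 tested, 8 were higher and 9 lower, with a median of 0.00. Scn1a, a sodium channel of fast-spiking neurons, was at 99.5, 119, 90.1 and 148 CPM in E1 against 135 to 189 CPM in WT.

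Genes of the circadian clock were measured in both directions. Of 19 tested 5 were lower and 1 higher at an unadjusted p under 0.05, against 4.99% and 3.66% of all genes. The median of the list was -0.03. The lower ones were Rora, Nr1d1, Ciart, Per3 and Dbp, and the higher one was Arntl. In a daily cycle Dbp, Nr1d1 and Per3 peak together and Arntl runs opposite to them. Dbp stood at 103 ± 19.3 CPM in WT (SD, n = 7) and 79.7 ± 15.5 CPM in E1 (SD, n = 4). Arntl stood at 32.1 ± 7.34 CPM in WT and 40.8 ± 4.33 CPM in E1. The hour of dissection is not given in the labels. Ppargc1a (-0.51, SE 0.15), a regulator of mitochondria, was lower at an unadjusted p under 0.05.

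Ribosomal protein and proteasome genes had small positive fold changes, of which 1, for Rpl3, had an unadjusted p under 0.05. Of 32 ribosomal protein genes 31 were positive (median 0.11). All E1 libraries were above all WT libraries for 5 of the 32, against 0.856% of all genes. Rpl3 (0.58, SE 0.18) was at 225 to 361 CPM in WT and 508, 343, 394 and 463 CPM in E1. Of 31 proteasome subunits 30 were positive (median 0.13), and 0 had an unadjusted p under 0.05. The medians of both lists ran from 0.0961 to 0.191 over all settings tried. Autophagy and lysosome genes did not share the direction, with 12 of 24 positive. Factors tied to RAN translation, the subject of the study's title, had a median of 0.05 over 31 genes, 0 of them with an unadjusted p under 0.05. Of 26 genes of proteins that bind repeat RNA (median 0.08), 1 was higher and 1 lower at that level, against 3.66% and 4.99% of all genes. The higher one, the splicing factor gene Srsf3, was above WT in all E1 libraries, at 183, 146, 150 and 160 CPM against 121 to 141 CPM (0.30, SE 0.09). It was the 1 such member of the 26, against 0.856% of all genes. The lower one was Dicer1 (-0.21, SE 0.09).

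The number of calls depended on E1 4. When it was left out, edgeR called 46 genes higher (0.255% of those tested) and 201 lower (1.12%). When E1 1, 2 or 3 was left out it called 0. For 243 of these genes the library that was left out can be set beside the rest. They were chosen because E1 1 to 3 differed from WT, which enlarges the gap to a library that had no part in the choice, so the values that follow are a description. E1 4 was nearer to the WT mean than to the other E1 libraries in 235 (96.7%, against 62.2% of all autosomal genes). It was within the WT range in 185 (76.1%, against 78.7% of all autosomal genes). In log2 units E1 1 to 3 were a median of 0.82 from WT, and E1 4 was -0.09 in the same direction. Scd1, which makes monounsaturated fatty acids for myelin, was at 313 to 373 CPM in WT, 201, 205 and 174 CPM in E1 1 to 3 and 365 CPM in E1 4. Syt2, a fast calcium sensor of synaptic release, was at 112 to 199 CPM in WT, 60.4, 73.5 and 48.0 CPM in E1 1 to 3 and 142 CPM in E1 4. Slc6a9, a glycine transporter of glia, was at 35.2 to 65.3 CPM in WT, 27.5, 24.99 and 26.01 CPM in E1 1 to 3 and 58.5 CPM in E1 4. In each of the 3 genes E1 1 to 3 were all below WT and E1 4 was inside it. Of the myelin list 8 of 23 genes were called lower in this fit, and of the ERK feedback list 5 of 14 higher.

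A few genes did not follow that pattern. For 8 of the 243 the difference of E1 4 from WT was more than 50% of that of the other 3 libraries: Dusp5, Igf2bp2, Dpysl5, Lyrm4, Micall2, Tgtp2, Catspere1 and 1700034H15Rik. Htt, which was not called, was at 145 CPM in E1 4, with the other E1 libraries. E1 4 also lacked Y-linked reads, as they did, and its cortical marker mean (3.31) was inside the WT range without WT 3. Markers of septum and hypothalamus, regions next to the striatum, did set it apart from the other E1 libraries: their mean log2 CPM was 0.78, 0.94 and 1.05 in E1 1 to 3 and 2.37 in E1 4, beside 0.97 and 1.13 in WT 2 and 3 and 1.62 to 2.36 in the other WT libraries. Their part in the result was not tested.

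**Figure D4:**
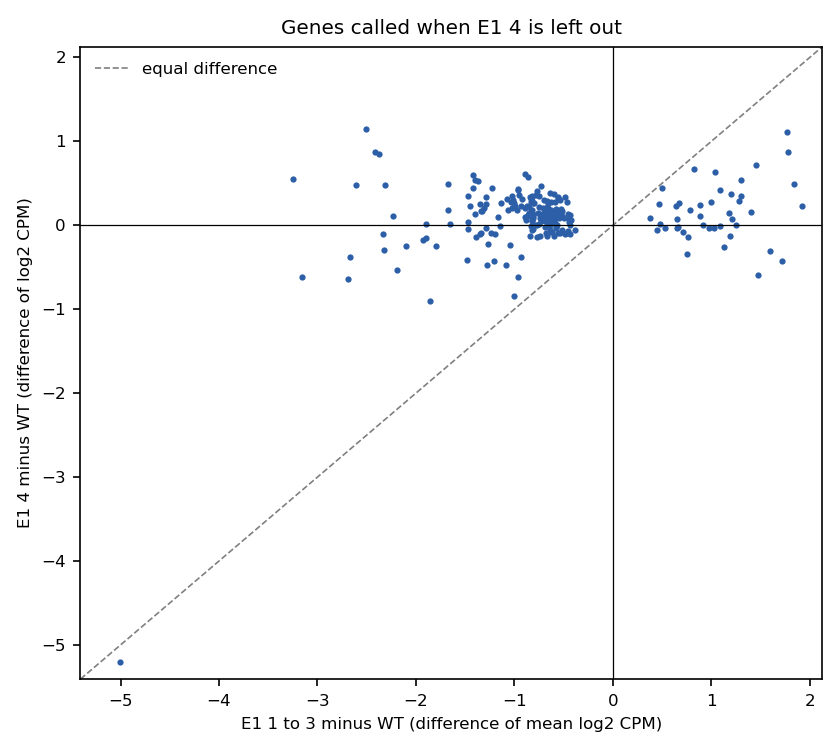
Each point is 1 of the 243 genes called when E1 4 was left out, with the mean log2 CPM of E1 1 to 3 minus that of WT on the horizontal axis and E1 4 minus WT on the vertical axis. Most points lie along the horizontal 0 line rather than the dashed line of equal difference, and the point at the lower left is Catspere1.

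WT 1, the WT library without Y-linked reads, bears on which differences follow genotype. Without it edgeR called 3 autosomal genes higher (0.0171%) and 3 lower (0.0171%). For 5 of the 6 WT 1 was nearer to E1 than to WT 2 to 7: Igf2bp2 on chromosome 16, given above, and 4 genes in the last part of chromosome 1. Dusp5 alone of the 6 was also called with WT 1 in the fit. Leaving WT 1 out favours genes in which it lies toward E1, so this count is a description. Of the 1491 genes with an unadjusted p under 0.05 without WT 1, it was nearer to E1 in 39%, against 45% of all autosomal genes. At an unadjusted p under 0.001 WT 1 was nearer to E1 in 19 of 38 (50%). Catspere1 (177808550 to 177962233), annotated as a pseudogene of a sperm calcium channel subunit, was at 3.803 to 10.0 CPM in WT 2 to 7 (73 to 240 counts). It had 1 count in WT 1, 1 count in E1 1 and 0 in the other E1 and all 4 KI-96 libraries. Catspere2 (177983423 to 178172704), its neighbour, was at 12.5 to 22.7 CPM in WT 2 to 7, at 5.96 CPM in WT 1 and at 4.20 to 5.45 CPM in E1. KI-96 1 to 4 had 5.53, 4.54, 12.2 and 4.75 CPM of Catspere2. Ints7 (191575636 to 191623688), a subunit of the Integrator complex, was at 27.7 to 42.4 CPM in WT 2 to 7, 57.4 CPM in WT 1 and 52.6 to 65.2 CPM in E1. The antisense transcript 1700034H15Rik (191886130 to 191907527) was at 5.83 to 6.66 CPM in WT 2 to 7, 3.65 CPM in WT 1 and 2.61 to 3.20 CPM in E1. Catspere1 and Catspere2 are related copies, so how reads were divided between them is uncertain. The labels do not say if strand was used in counting, so reads of 1700034H15Rik and of a partner on the other strand cannot be told apart.

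Of 237 genes tested on chromosome 1 from 170 Mb on, these 4 included, 17.7% had an unadjusted p under 0.05 without WT 1, against 8.48% over the autosomes. Windows elsewhere had higher shares, such as 26.5% of 34 genes on chromosome 12 from 10 to 20 Mb. E1 was apart from WT 2 to 7 for 9 of the 237 (3.8%, against 2.39% over the autosomes). WT 1 was nearer to E1 in 5 of the 9, the 4 genes above and Dusp23, and in 37.8% of the genes apart over the autosomes. Elsewhere Amd2, of polyamine synthesis (chromosome 10), was at 1.51 CPM in WT 1, 3.39 to 7.34 CPM in WT 2 to 7 and 0.717 to 2.47 CPM in E1. Adi1, of methionine salvage (chromosome 12), was at 29.2 CPM in WT 1, 34.2 to 73.8 CPM in WT 2 to 7 and 21.1 to 33.3 CPM in E1. For Dusp5, Htt and Gabrb2, by contrast, WT 1 was among WT 2 to 7 or farther from E1 than they were. Over the 33 genes with the smallest p or the largest fold without overlap, E1 differed from WT 1 alone in the same direction in 32, although WT 1 had a part in choosing them. Over all autosomal genes WT 1 was nearer to E1 than to WT 2 to 7 in 45.0%.

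**Figure D5:**
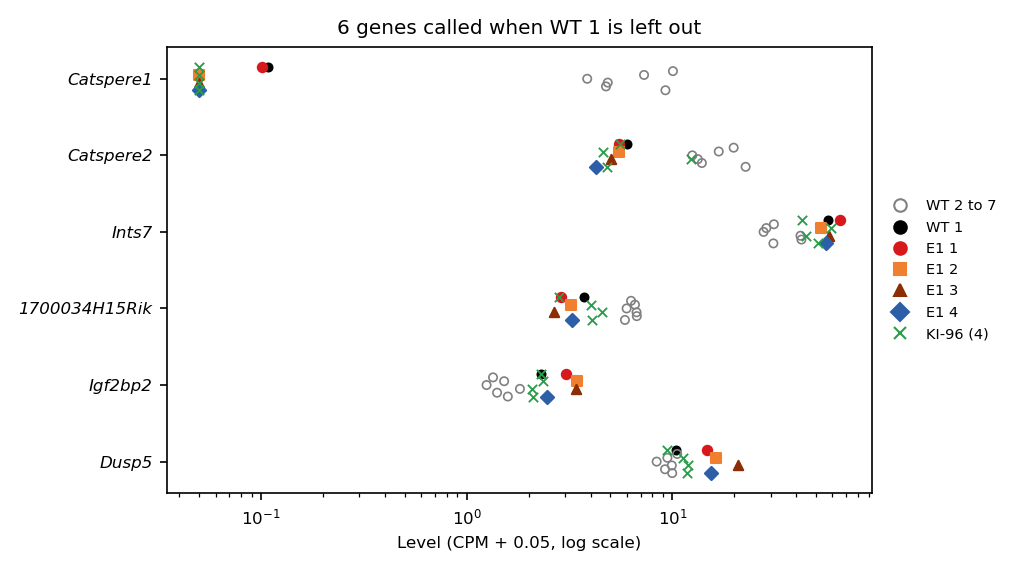
Levels of the 6 autosomal genes called when WT 1 was left out, as CPM plus 0.05 on a log scale, 1 symbol for each library, with KI-96 as green crosses. In the top 4 rows WT 1 (black) is with E1 or next to it, and in the Dusp5 row it is with WT 2 to 7.

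Some of the largest fold changes came from genes at separate levels within WT. By a rule set on the WT libraries alone, 21 autosomal genes fell into a high and a low set of at least 2 WT libraries each, with a gap of at least 4-fold. Of these, 10 are pseudogenes. All 4 E1 libraries were on the low side in 8 of the 21, on the high side in 0 and on both sides in 13. The 8 were Eno1b, Ptgfr, Tma7-ps, Gm8730, Rpl34-ps1, Gm28438, Eif3j2 and Gm11868. They are also the 8 of the 21 with an unadjusted p under 0.05, against 4.99% of all genes lower and 3.66% higher. With all 4 E1 libraries on the low side of such a gap a low p is likely, so this is not a separate result. Eno1b, a copy of an enolase gene, was at 34.8, 30.4 and 31.2 CPM in WT 5 to 7, at 0.412 to 0.538 CPM in WT 1 to 4 and at 0.410 to 0.899 CPM in E1. Ptgfr, a prostaglandin receptor gene, split the same way, at 3.08, 3.88 and 4.87 CPM in WT 5 to 7, 0.235 to 0.521 CPM in WT 1 to 4 and 0.0562 to 0.472 CPM in E1. Eif3j2, a copy of an initiation factor gene, was at 6.41, 5.88 and 5.31 CPM in WT 2 to 4, 0.174 to 0.855 CPM in the other WT libraries and 0.281 to 0.564 CPM in E1. WT 5 to 7 were also the 3 deepest WT libraries. Most of these 8 are copies of other genes, and reads may have been split between copy and source. Frem3, an extracellular matrix gene, showed E1 4 alone on the high side: it was at 0.359, 0.337 and 0.213 CPM in E1 1 to 3 and 8.40 CPM in E1 4, beside 0.646 and 0.764 CPM in WT 2 and 3 and 4.05 to 13.5 CPM in the other WT libraries.

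By gene type, lncRNAs, pseudogenes and the remaining types had fewer positive than negative fold changes. The median fold change also varied with level, from -0.07 for genes under 1 CPM to 0.03 for genes over 100 CPM. The part of level in the differences between types was not tested. Of 1962 lncRNAs tested, 111 were lower and 36 higher at an unadjusted p under 0.05, and 40.3% had positive fold changes. Of 517 pseudogenes 35 were lower and 20 higher, with 41.4% positive, and 43.1% of 933 genes of other types were positive. Of 14229 protein-coding genes 703 were lower and 564 higher, with 51.9% positive. Over all genes 4.99% were lower and 3.66% higher at that level. In either direction it was reached by 7.49% of lncRNAs, 10.6% of pseudogenes, 6.11% of other types and 8.90% of protein-coding genes. The share of genes at an unadjusted p under 0.05 ran from 6.79% on chromosome 8 to 11.7% on chromosome 1.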

How the data were processed

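RNA of mouse striatum was sequenced, and the authors deposited a table of raw read counts, whole numbers with no normalization, in which each column is a mouse. The submitters' processing notes name STAR, HTSeq, DESeq2 1.24.0 and GRCm38, with no roles. Of 54232 identifiers 54165 matched a GRCm38 annotation without version. Genes were kept by the default filter of edgeR 4.0.16 (minimum count 10), scaled by the trimmed mean of M-values and fitted with a robust quasi-likelihood model over 15 libraries in 3 groups, so that p-values share 1 estimate of spread. Adjustment was Benjamini-Hochberg over 18278 genes, with a threshold of 0.05. CPM used the scaled library sizes, except for Y-linked genes and Xist (raw totals), and log2 CPM a prior count of 2. DESeq2 1.42.0, limma-voom (limma 3.58.1), other filters, scalings, covariates and left-out libraries were alternatives. The test was checked on simulated counts.

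In all 53 gene lists were used. The members and lists were chosen with earlier results of these data known. Named by rule were Htt, genes past the threshold, the 12 protein-coding genes each way with the smallest p (mean of at least 1 CPM), the 6 each way with the largest fold among groups without overlap, and up to 3 members per list. Others, including all genes of the paragraphs on E1 4, WT 1 and separate WT levels, were chosen after their values were seen. Replicates are separate mice. The pairing of replicate numbers is in the closing section.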

Additional observations from a re-analysis of the deposited data

Results flagged for a closer look

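In 16 of 174 groups of 4 or 7 libraries (named genes and list means), 1 library lay far from the others by a gap test that chance passes in about 1 of 20 groups. Values are log2 CPM. For single genes these were Dpysl5 in WT 3 (5.11, next library 5.45), Washc2 in E1 4 (6.44, next 6.11), Cracr2a in WT 2 (0.95, next 1.67), Kif21b in E1 1 (5.76, next 6.40), Bst2 in E1 1 (4.19, next 2.03), and Gpr157 in WT 4 (2.77, next 2.24) and in E1 1 (1.236, next 1.77).

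For list means, E1 1 was low for interneuron genes (3.63, next 4.07) and WT 6 low for interferon-stimulated genes (1.38, next 1.58). WT 3 was high for cortical excitatory markers (5.95, next 3.91) and presynaptic release genes (8.65, next 8.02), and low for oligodendrocyte precursor (4.33, next 4.62) and meningeal fibroblast genes (1.10, next 1.48). WT 2 was high for glucocorticoid response genes (5.57, next 5.09) and choroid plexus genes (3.32, next 2.23), and E1 2 was low for choroid plexus genes (0.65, next 1.84).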

How the results depend on the processing

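The count of autosomal calls was 1 in the reported fit and with upper-quartile scaling, limma-voom and autosomal genes only. It was 52 with DESeq2 (27 higher, 25 lower). It was 0 with the replicate block, with the cortical marker or the Y-linked covariate, with no filter on low counts, with KI-96 left out of the fit, without the 3 libraries high in cortical markers and without the 6 WT libraries with Y-linked reads. The last pair of settings was chosen after seeing the data, and the last leaves WT 1 as the single WT library, assumed to vary like the other groups. Leaving out 1 library at a time gave 0 to 247 calls, 0 to 46 higher and 0 to 201 lower (6 calls without WT 1, 247 without E1 4). Dusp5 kept its direction throughout and lost its call at 0.78 with the replicate block, 0.74 with the cortical marker covariate, 0.70 with the covariate for Y-linked reads, 0.79 with no filter, 0.80 without the KI-96 group, 0.63 without the 3 libraries and 0.70 without the 6 libraries. On leaving out 1 library it ran from 0.68 to 0.86. Htt stayed negative in every setting and was called in 0. Replicate numbers showed no clear pairing of the mice (correlations of same-numbered deviations 0.02, -0.11, 0.11 and 0.18). The same-numbered match was the best one for replicates 3 and 4 and not for replicates 1 and 2. With the replicate block Htt was -0.37.

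Some genes changed direction. Amd2 was 0.17 with the Y-linked covariate and 0.18 without the 6 WT libraries, and Lss was 0.046 in both. Without the 3 libraries high in cortical markers Bdnf was -0.50, Slc17a7 -0.88, Mef2c -0.093 and Mobp 0.15. With the cortical marker covariate Slc17a7 was -0.13 and Mef2c -0.020. With 1 library left out, Stat2 ran from -0.087 (without E1 1) to 0.19, Cmpk2 from -0.0049 (without E1 1) to 0.21, Mef2c from -0.00095 (without E1 2) to 0.36 and Mobp from -0.35 to 0.0046 (without E1 3). The cause was not tested. Of 53 list medians 27 changed sign in some setting. At under 1 CPM, 21.6% of 95% intervals lay within 2-fold of no change, so for most genes at that level the data do not bound the change to 2-fold.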
